A study of Caenorhabditis elegans with 12 samples.

Results

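Sites of cohesin and SIN-3 without JMJD-2 were defined as merged peak intervals that hold at least 1 SCC-1 peak and at least 1 SIN-3 peak but no JMJD-2 peak. They number 287 of the 5870 intervals (4.89%) formed when the peaks of all 6 lists were pooled and those sharing at least 1 bp were merged. The lists come from ChIP-seq of SCC-1, SIN-3, ZFP-1, JMJD-2, TOP-2 and BLMP-1 in whole L3 larvae of the wild-type N2 strain, the third larval stage, grown without treatment or mutation, so that the samples differ in the antibody, and the BLMP-1 list also in the peak caller. Each protein has 2 samples, 12 in all, and a single deposited list that already combines both. The lists give chromosome, start and end in ce10 and no height or score, so the depth behind a peak and the error between replicates are unknown. Because whole animals were used, the peaks do not tell whether both proteins bind in the same cells.

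Cohesin is a ring-shaped complex that holds sister chromatids together and can form chromatin loops, and SCC-1 is the subunit that closes the ring. In mammals, cohesin is halted at sites of CTCF, a factor that C. elegans lacks. SIN-3 is the scaffold of a histone deacetylase complex that removes acetyl groups from histone tails, an activity usually linked to repression. JMJD-2 is a demethylase that removes methyl groups from histone lysines. BLMP-1 is a zinc finger transcription factor of epidermal and gonadal development, ZFP-1 is a chromatin protein with zinc fingers that read histone tails, and TOP-2 is a type II topoisomerase that relieves tangles in DNA.

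The sites were chosen by the presence of SCC-1 and SIN-3 peaks and the absence of JMJD-2 peaks, which are therefore no finding. SCC-1/SIN-3 sites without JMJD-2 took up 25.7% of the 1115 SCC-1 peaks and 16.7% of the 1715 SIN-3 peaks. They were compared with 536 intervals with SCC-1 but neither SIN-3 nor JMJD-2 (SCC-1 sites), 1125 intervals with SIN-3 but neither SCC-1 nor JMJD-2 (SIN-3 sites) and 191 intervals with all 3 proteins. As in the SCC-1/SIN-3 sites, BLMP-1, TOP-2 and ZFP-1 were allowed in each class. Of the 478 intervals with SCC-1 and SIN-3, 60.0% thus lacked JMJD-2. Tests took intervals as units, and the intervals given with shares are exact Clopper-Pearson 95% intervals. Both cover counting error over sites only, and nearby sites may not be independent.

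Every SCC-1/SIN-3 site without JMJD-2 held exactly 1 peak of each of the 2 proteins, and the 2 peaks overlapped directly. The median site was 255 bp long and the range was 115 to 512 bp. The overlap was usually almost complete, with a median of 219 bp shared, or 96.4% of the shorter peak. In 61 sites (21.3%) the shorter peak lay wholly within the longer. Overlap was more complete at sites with all 3 proteins, where the median was 98.4% of the shorter peak. There, the shorter peak lay within the longer in 60 of 191 pairs (31.4%). These differences were not tested. The median SCC-1 peak was 237 bp wide here, 234 bp at SCC-1 sites and 235 bp at sites with all 3 proteins, so the peaks themselves were of similar width. Widths bear on whether peaks overlap and were not tested.

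SCC-1 and SIN-3 midpoints coincided less closely in sites without JMJD-2 than in sites with it. The median distance between the midpoints was 13.5 bp in the 287 pairs without JMJD-2 and 8 bp in the 191 pairs with it, with upper quartiles of 38.8 and 19.8 bp. Midpoints at most 50 bp apart were found in 222 pairs without JMJD-2 (77.4%, interval 72.1% to 82.1%) and in 171 pairs with it (89.5%, interval 84.3% to 93.5%), against 82.2% of all overlapping SCC-1 and SIN-3 pairs (odds ratio 0.400, interval 0.221 to 0.700, p = 0.000594, two-sided Fisher's exact test). The share was lower without JMJD-2 on 5 of the 6 chromosomes. The SIN-3 midpoint lay at the higher coordinate in 153 pairs, at the lower in 131 and at the same base in 3, so neither side prevailed by much. Among the 38 sites that also held ZFP-1, the median distance was 7.5 bp and the largest 73.5 bp. The 15 sites with BLMP-1, of which 7 also held ZFP-1, had a median of 7.5 bp too and reached 81 bp. The 241 sites of SCC-1 and SIN-3 alone had a median of 14 bp and reached 243 bp. These groups differ in size and were not tested.

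**Figure D1:**
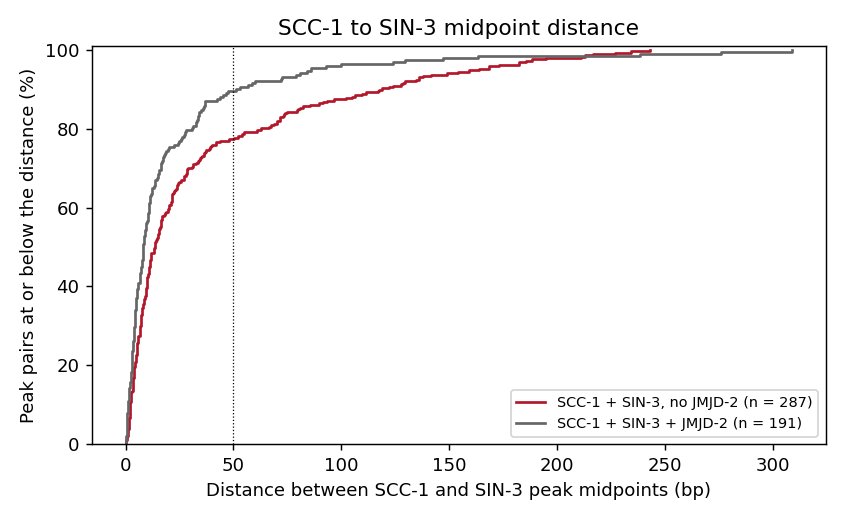
Cumulative share of overlapping SCC-1 and SIN-3 peak pairs (vertical axis, %) by the distance between their midpoints (horizontal axis, bp), for sites without JMJD-2 (red) and with it (gray). The dotted line marks 50 bp, at which the curves stand at 77.4% and 89.5%.

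The closest alignments give a picture of these sites on each chromosome. On I, an SCC-1 peak from 10373933 to 10374158 lay centered within a SIN-3 peak from 10373923 to 10374168 (ce10), with midpoints at the same base. On IV, midpoints also coincided, in a site from 2495217 to 2495461 in which 235 bp were shared. On III, SCC-1 and SIN-3 had the same midpoint in a site from 5591818 to 5592047, and a ZFP-1 peak from 5591825 to 5592047 covered nearly the same bases. The midpoints were 1 bp apart on II (9892405 to 9892659) and on V (7776186 to 7776414), and 3 bp apart on X (14708148 to 14708465), where ZFP-1 was again present. At the other extreme, the longest site, on V from 14685379 to 14685890, had midpoints 243 bp apart and 26 bp shared. The shortest, on I from 1372261 to 1372375, still shared 96 bp.

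At most sites JMJD-2 was far away, as it was in the comparison classes. Among all SCC-1 and SIN-3 peaks, pairs that just met or just missed each other were found. The nearest JMJD-2 peak outside a site lay at a median of 44431 bp. The median was 34322 bp at SCC-1 sites, 37364 bp at SIN-3 sites and 26961 bp at sites with all 3 proteins (not tested). At 7 SCC-1/SIN-3 sites a JMJD-2 peak was within 1 kb. The smallest distance was 462 bp, at a site on I from 1701789 to 1702035, followed by 472 bp on I (7542768 to 7542998) and 519 bp on X (14362140 to 14362377). At the first of these, other SCC-1 and SIN-3 peaks lay 468 and 485 bp away, in the same merged interval as the JMJD-2 peak. Conversely, each of the 191 JMJD-2 peaks in the sites with all 3 proteins shared at least 172 bp with the SCC-1 or the SIN-3 peak. For SCC-1 and SIN-3, the sites just inside the rule shared 1 bp (X from 516634 to 517088) and 3 bp (X from 13796511 to 13796982). The pairs just outside it were separated by 13 bp (SCC-1 from 169643 to 169891 on X, SIN-3 from 169199 to 169629) and 14 bp (SCC-1 from 13625655 to 13625910 on V, SIN-3 from 13625925 to 13626145). Gaps of up to 500 bp were found for 98 pairs of SCC-1 and SIN-3 peaks, 4 of them up to 50 bp.

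ZFP-1 and BLMP-1 were found at SCC-1/SIN-3 sites without JMJD-2 less often than at sites with all 3 proteins. ZFP-1 was present at 38 sites without JMJD-2 (13.2%, interval 9.54% to 17.7%) and at 70 of the 191 sites with it (36.6%, interval 29.8% to 43.9%; odds ratio 0.265, interval 0.163 to 0.424, adjusted p = 3.25e-08, two-sided Fisher's exact test adjusted by Benjamini-Hochberg for 9 comparisons). Over all 5870 intervals the share was 41.8%, which is high by construction because 1811 intervals held ZFP-1 alone. The share over all intervals for BLMP-1 is likewise high by construction, as each BLMP-1 peak counts there with its own interval. BLMP-1 was present at 15 sites (5.23%, interval 2.95% to 8.47%) and at 28 sites with all 3 (14.7%, interval 9.97% to 20.5%; odds ratio 0.322, interval 0.155 to 0.645, adjusted p = 0.00245, Fisher's exact test), against 16.7% of all intervals. Both shares were lower without JMJD-2 on each of the 6 chromosomes. For BLMP-1 the counts per chromosome were small, as on V (1 of 38 and 1 of 19) and on X (1 of 16 and 2 of 27). With X left out, the ZFP-1 shares were 12.5% and 34.1% (adjusted p = 1.57e-06, Fisher's exact test). The BLMP-1 shares were then 5.17% and 15.9% (adjusted p = 0.00123, Fisher's exact test).

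Compared with SCC-1 or SIN-3 sites, no difference in ZFP-1 or BLMP-1 passed the test. ZFP-1 was present at 8.40% of SCC-1 sites (odds ratio 1.66, interval 1.02 to 2.70, adjusted p = 0.0862 by the exact test) and at 12.4% of SIN-3 sites (odds ratio 1.08, interval 0.716 to 1.61, adjusted p = 0.690 by the exact test). BLMP-1 was present at 2.24% of SCC-1 sites (odds ratio 2.41, interval 1.03 to 5.71, adjusted p = 0.0862, Fisher's exact test) and at 3.02% of SIN-3 sites (odds ratio 1.77, interval 0.882 to 3.39, adjusted p = 0.131, Fisher's exact test). The comparisons with SCC-1 sites depended on how sites and peaks were counted. Requiring SCC-1 and SIN-3 peaks to share at least 50% of the shorter peak left 265 sites. The sites dropped held neither ZFP-1 nor BLMP-1, and the 536 SCC-1 sites were not filtered. The shares of ZFP-1 and BLMP-1 thus rose to 14.3% and 5.66% only because the total shrank. Both then passed against SCC-1 sites (exact adjusted p = 0.0398 and 0.0451), which is no separate evidence of a difference. Counting peaks with midpoints within 250 bp of the SCC-1 midpoint, BLMP-1 alone passed (5.23% and 1.87%, exact adjusted p = 0.0301).

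TOP-2 was found at 0 of the 287 sites, which allows a share of up to 1.05% by a limit of 3 sites, or up to 1.28% by the exact interval. The TOP-2 list is short, with 464 peaks. TOP-2 was present at 7.9% of all intervals, which is high by construction because each TOP-2 peak counts there with its own interval. It occupied 2 SCC-1 sites (0.373%), 10 SIN-3 sites (0.889%) and 2 sites with all 3 proteins (1.05%). None of these differences passed (exact adjusted p = 0.613, 0.293 and 0.239; 0 of 3 with an unadjusted p under 0.05). The upper bounds of the odds ratios were 9.95, 1.75 and 3.54, so a lower, similar or higher share could not be told apart at this list size.

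**Figure D2:**
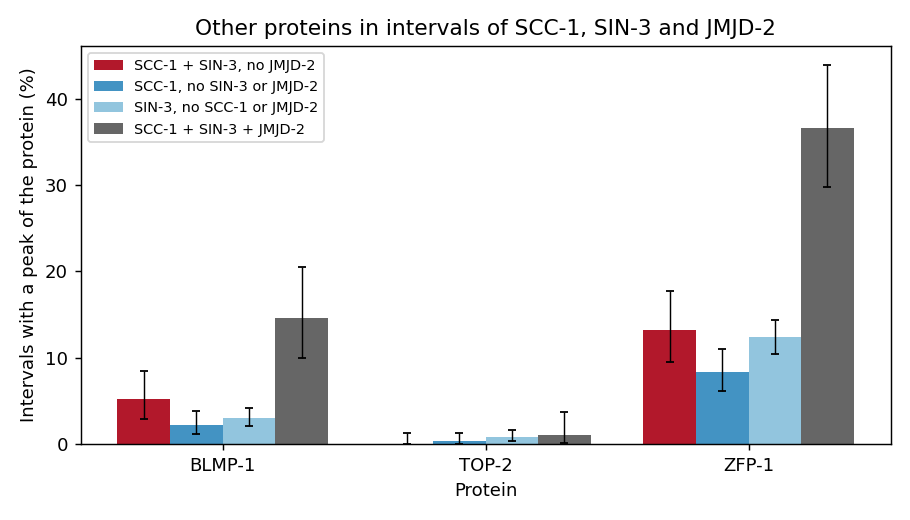
Share of intervals (vertical axis, %) that also held a peak of BLMP-1, TOP-2 or ZFP-1, for 287 SCC-1/SIN-3 sites without JMJD-2 (red), 536 SCC-1 sites, 1125 SIN-3 sites (blues) and 191 sites with all 3 proteins (gray). Error bars are exact 95% intervals over sites, and for ZFP-1 the gray bar stands at 36.6% and the red bar at 13.2%.

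The composition of the SCC-1/SIN-3 sites was simple. In 241 sites no further protein was mapped, in 31 ZFP-1 was the only addition, in 8 BLMP-1 was, and in 7 both were present. Peaks had to share bases to be counted in a site, and their midpoints were close as well. The midpoint of ZFP-1 was a median of 17.2 bp from that of SCC-1 and 18 bp from that of SIN-3, and the BLMP-1 midpoint 22.5 and 21.5 bp. The 7 sites with 4 proteins were on X (768075 to 768468), V (11228647 to 11229035), II (6370071 to 6370430, 10868764 to 10869037 and 11980130 to 11980392), I (5429808 to 5430136) and IV (11149614 to 11149884). In the site on X, the longest of them, the BLMP-1 peak spanned all 394 bp and the other 3 peaks lay within it. In these 7 sites SCC-1 and SIN-3 midpoints were between 3.5 and 21 bp apart.

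SCC-1/SIN-3 sites without JMJD-2 were rare on X, and more so than sites with all 3 proteins. X held 16 of the 287 sites (5.57%, interval 3.22% to 8.90%) and 27 of the 191 sites with all 3 (14.1%, interval 9.53% to 19.9%; odds ratio 0.359, interval 0.175 to 0.715, adjusted p = 0.00533, two-sided Fisher's exact test adjusted for 3 comparisons), against 15.5% of all intervals. Of the intervals on X with both SCC-1 and SIN-3, 37.2% thus lacked JMJD-2, compared with 52.9% on III to 68.5% on II among the autosomes. SCC-1 sites (8.21%; odds ratio 0.660, interval 0.341 to 1.22) and SIN-3 sites (7.56%; odds ratio 0.723, interval 0.389 to 1.27) had shares on X that did not differ from that of SCC-1/SIN-3 sites by the test (adjusted p = 0.304 for both, Fisher's exact test). The 16 sites on X had a median midpoint distance of 22.5 bp, the largest of the 6 chromosomes, and 4 of them had midpoints more than 100 bp apart. ZFP-1 was present at 4 of them and BLMP-1 at 1.

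Among the autosomes, the density ran from 1.82 sites per Mb on V to 4.31 on I, with 4.12 on II, 3.43 on IV, 3.26 on III and 0.905 on X. The autosomes were tested singly after these counts were seen, in 15 comparisons. II held 63 SCC-1/SIN-3 sites (22.0%), more than the 14.4% of SCC-1 sites (odds ratio 1.68, interval 1.14 to 2.46, adjusted p = 0.0486, Fisher's exact test) while the difference from the 15.5% of SIN-3 sites did not pass (adjusted p = 0.0514, Fisher's exact test). All intervals had 15.5% on II. III held 45 sites (15.7%), fewer than the 25.1% of SIN-3 sites (odds ratio 0.556, interval 0.384 to 0.791, adjusted p = 0.0108, Fisher's exact test), against 18.3% of all intervals. I held 65 sites (22.6%, against 18.6% of all intervals), IV 60 (20.9%, against 17.2%) and V 38 (13.2%, against 14.9%). None of the other 12 comparisons passed (adjusted p = 0.284 or higher, Fisher's exact test, with 0 of 12 under 0.05 before adjustment). The 1-Mb window with the most sites was on I from 12700001 to 13700000, with 10 sites, equaled by the window from 12800001, and the genome mean was 2.86 per Mb. It was picked as the highest, and clustering there was not tested. The first window also held 7 SCC-1 sites, 17 SIN-3 sites and 1 site with all 3 proteins.

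**Figure D3:**
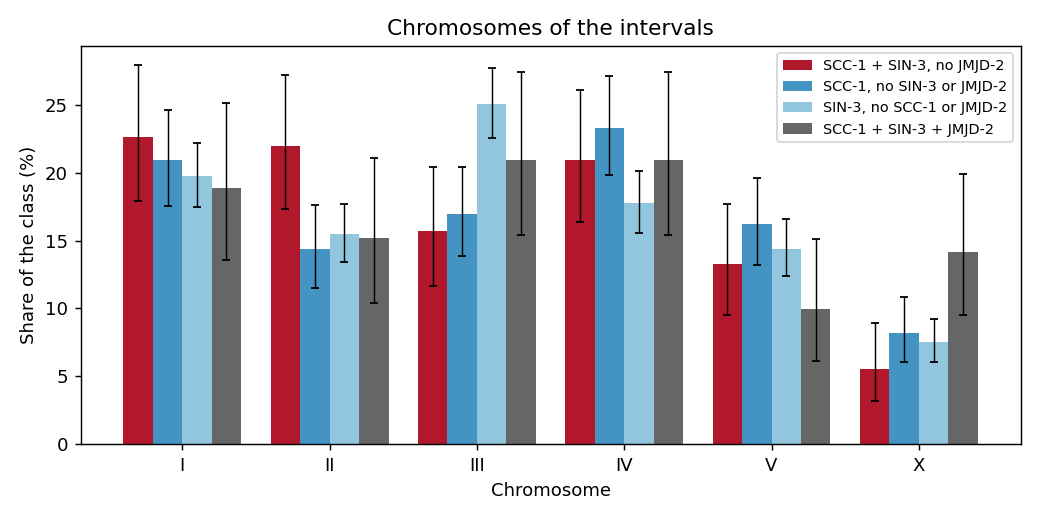
Share of each class of intervals (vertical axis, % of the class) on each chromosome (horizontal axis), with exact 95% intervals over sites. On X the red bar (SCC-1/SIN-3 sites without JMJD-2, 5.57%) is lower than the gray bar (all 3 proteins, 14.1%), and on III it is lower than that of SIN-3 sites (25.1%).

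No preference for chromosome arms was detectable. Arms were taken as the outer stretches of an autosome, each as long as the center between them. Of the 271 autosomal SCC-1/SIN-3 sites, 179 (66.1%, interval 60.1% to 71.7%) were on arms, compared with 66.7% of SCC-1 sites, 66.5% of SIN-3 sites and 61.6% of sites with all 3 proteins (adjusted p = 0.885 for each, Fisher's exact test). Of all autosomal intervals 63.5% were on arms. Odds ratios had intervals of 0.703 to 1.35, 0.732 to 1.31 and 0.794 to 1.85. The share on arms was 75.4% on I and 56.7% on IV, the extremes among the autosomes.

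Fewer SCC-1/SIN-3 sites than SCC-1 sites had a further SCC-1 peak nearby, while SIN-3 sites (20.2%) and sites with all 3 proteins (22.0%, not tested) had shares near that of SCC-1/SIN-3 sites. Another SCC-1 peak lay within 5 kb of 56 SCC-1/SIN-3 sites (19.5%, interval 15.1% to 24.6%) and of 172 SCC-1 sites (32.1%, interval 28.2% to 36.2%; odds ratio 0.513, interval 0.357 to 0.731, adjusted p = 0.000703, two-sided Fisher's exact test adjusted for 12 comparisons), against 15.2% of all intervals. The share was lower on 5 of the 6 chromosomes. The call held with limits of 2 and 10 kb and with peaks closer than 1 kb left out of count (13.6% and 22.8%, exact adjusted p = 0.0199). With all peaks under 1 kb apart merged into 1 interval, it was lost (12.3% and 18.7%, exact adjusted p = 0.227). Neighbors of SCC-1 sites were mostly further SCC-1 sites, 112 of 172, so many of these sites served as each other's neighbor and are not independent.

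Fewer SCC-1/SIN-3 sites than SCC-1 or SIN-3 sites had a further SIN-3 peak within 5 kb, but these calls were lost when the closest peaks were not counted. The share at SCC-1/SIN-3 sites was near that of all intervals, and the shares at SCC-1 and SIN-3 sites were above it. Sites with all 3 proteins stood at 27.2% (not tested). Besides the SIN-3 peak it contains, another lay within 5 kb of 63 SCC-1/SIN-3 sites (22.0%), compared with a SIN-3 peak near 35.4% of SCC-1 sites (adjusted p = 0.000703, Fisher's exact test) and another near 30.6% of SIN-3 sites (odds ratio 0.639, interval 0.462 to 0.874, adjusted p = 0.0173, Fisher's exact test), against 22.7% of all intervals. The first of these comparisons is linked to the rule, since an SCC-1 peak whose SIN-3 peak just failed to overlap counts as an SCC-1 site with a near SIN-3 neighbor. Within 500 bp there was a SIN-3 peak at 71 SCC-1 sites (13.2%) and a further one at 15 SCC-1/SIN-3 sites (5.23%). In the comparison with SIN-3 sites, their SIN-3 neighbors within 5 kb were mostly further SIN-3 sites, 254 of 344. Many of these sites thus served as each other's neighbor and are not independent. With peaks closer than 1 kb not counted, neither SIN-3 comparison passed (17.4% against 22.4% and 23.3%, exact adjusted p = 0.273 and 0.190), and neither did with peaks under 1 kb apart merged (exact adjusted p = 0.312 and 0.227). The comparison with SIN-3 sites also failed at a limit of 10 kb (36.2% and 43.3%, adjusted p = 0.0961, Fisher's exact test).

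**Figure D4:**
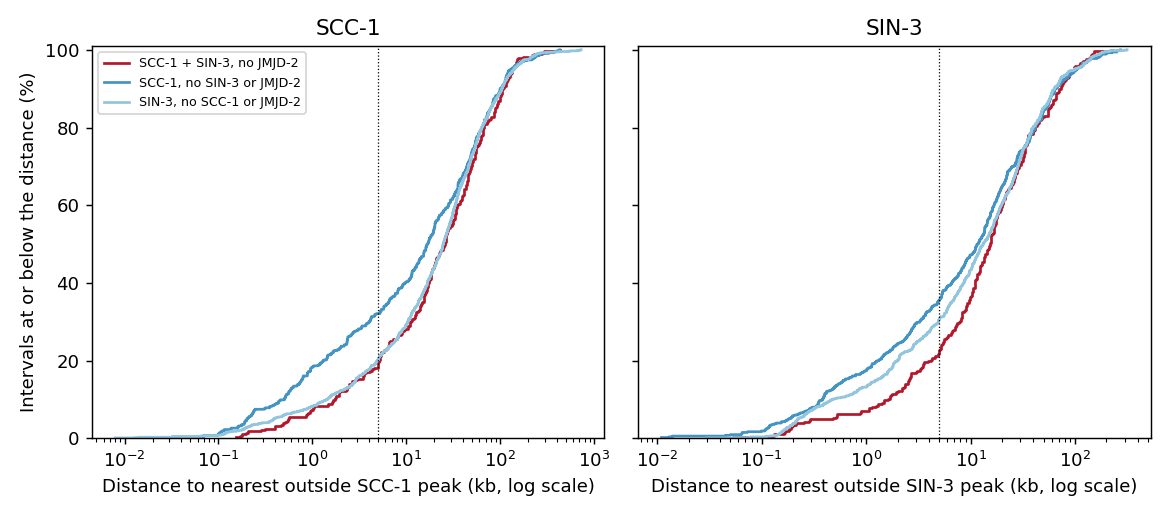
Cumulative share of intervals (vertical axis, %) by the distance to the nearest SCC-1 peak (left) or SIN-3 peak (right) outside the interval (horizontal axis, kb, log scale), for SCC-1/SIN-3 sites without JMJD-2 (red), SCC-1 sites and SIN-3 sites (blues). At the dotted line, 5 kb, the red curve stands at 19.5% for SCC-1 and 22.0% for SIN-3.

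For peaks of the other 4 proteins around SCC-1/SIN-3 sites, no difference passed the test at 5 kb. A JMJD-2 peak lay within 5 kb of 28 sites (9.76%), compared with 14.2% of SCC-1 sites and 11.4% of SIN-3 sites (odds ratios 0.655, interval 0.398 to 1.05, and 0.842, interval 0.526 to 1.31), against 11.6% of all intervals. A ZFP-1 peak was near 66 sites (23.0%; 32.5% of all intervals), a BLMP-1 peak near 20 (6.97%; 15.3% of all intervals) and a TOP-2 peak near 15 (5.23%; 7.09% of all intervals). Adjusted p-values for these 4 proteins ran from 0.187 to 1 (Fisher's exact test). A JMJD-2 peak within 10 kb was less frequent than at SCC-1 sites (16.0% and 23.7%, exact adjusted p = 0.0472), with no difference passing against SIN-3 sites (19.1%, exact adjusted p = 0.459) and 18.7% over all intervals. A TOP-2 peak within 2 kb was found at 8 sites (2.79%) and at 2 SCC-1 sites (0.373%, exact adjusted p = 0.0134). The difference from SIN-3 sites did not pass (2.04%, exact adjusted p = 0.745). The share was 1.57% at sites with all 3 proteins and 4.09% over all intervals. Neither call against SCC-1 sites held at the other limits. JMJD-2 did not pass at 2 kb (5.92% and 8.40%, exact adjusted p = 0.369). TOP-2 did not pass at 10 kb (8.01% and 5.04%, exact adjusted p = 0.188). Adjustment covered the comparisons at each limit, not the number of limits tried.

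**Figure D5:**
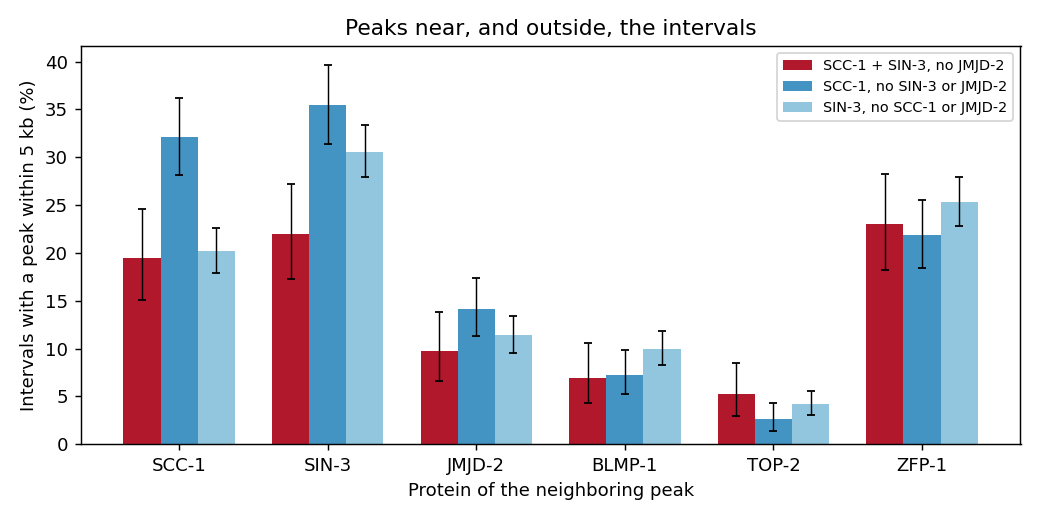
Share of intervals (vertical axis, %) with a peak of each protein outside the interval but within 5 kb, for SCC-1/SIN-3 sites without JMJD-2 (red), SCC-1 sites and SIN-3 sites (blues), with exact 95% intervals over sites. For SCC-1 neighbors the red bar (19.5%) lies below that of SCC-1 sites (32.1%) and near that of SIN-3 sites (20.2%).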

How the data were processed

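ChIP-seq of 6 proteins in wild-type L3 larvae was analysed from 6 peak lists. According to the methods, peak calling by the authors used YAPC on single replicates (MACS2 for BLMP-1), followed by an IDR filter across replicates. The submitters' processing notes name BWA, MACS2 and ce10, and the deposited lists hold peak positions only, counted here from 1. Tool versions are not given in the sources used. The study removed intervals occupied by many factors, and whether the deposited lists had passed that filter is not stated. Such removal would lower the number of proteins per site.

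Peaks sharing at least 1 bp were merged and classes of intervals compared by Fisher's exact test, two-sided, with Benjamini-Hochberg adjustment within each kind of comparison (threshold 0.05). The last peak of any list stood for the end of a chromosome. The members, comparisons and regions named (closest midpoints on each chromosome, most proteins, longest, shortest, nearest JMJD-2 peak, densest window, runs of sites at most 10 kb apart, edges of the rule) were chosen with earlier results of these data known. All sites with 4 proteins are named, 2 beyond that rule. Genes and sequences were not assigned, because the only gene table at hand follows WBcel235, a different assembly. Alternatives varied the overlap and merging of peaks, the comparison classes, the distance to neighbors and the chromosomes used. The forming of classes and the comparison of ZFP-1 in sites were tried on simulated lists. The comparisons of X, arms, neighbors and midpoint distances were not. Python 3.11.15, numpy 2.4.6, scipy 1.17.1 and matplotlib 3.10.9 were used.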

Additional observations from a re-analysis of the deposited data

How the results depend on the processing

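Of 207 tests under alternatives, 182 kept direction and side of the threshold, 1 had a difference of 0 and did not pass, 6 no longer passed, 5 newly passed and 13 reversed, of which 0 passed in either form. Another 27, requiring direct overlap, could not differ, since all sites met it. The 182 also include repeats of main differences, so they overstate the number of separate checks. Limiting SCC-1 and SIN-3 sites to intervals with no other protein left the class with all 3 proteins untouched. Differences in X and arms against that class therefore could not change. Setting aside the broadest BLMP-1 peaks (over 1 kb) altered only the differences from SCC-1 sites. Differences below are SCC-1/SIN-3 sites minus the class named, in percentage points. With peaks under 1 kb apart merged, near SCC-1 (-6.41) and SIN-3 peaks (-4.84) against SCC-1 sites and SIN-3 peaks against SIN-3 sites (-5.28) no longer passed. SIN-3 peaks also failed from 1 to 5 kb (-4.97 and -5.87) and, against SIN-3 sites, at 10 kb (-7.05). Against SCC-1 sites, BLMP-1 (3.42) and ZFP-1 (5.94) passed at 50% overlap, which dropped only SCC-1/SIN-3 sites without either protein. Also passing against SCC-1 sites were BLMP-1 (3.36) by midpoints, TOP-2 neighbors (2.41) at 2 kb and JMJD-2 neighbors (-7.67) at 10 kb. Reversed were BLMP-1 neighbors against SCC-1 sites (0.122 for single-protein sites, 0.470 on autosomes, 0.916 at 10 kb, 0.164 from 1 to 5 kb, 1.12 without IV), ZFP-1 neighbors against SCC-1 sites (-0.417 at 2 kb, -2.79 at 10 kb), JMJD-2 neighbors (0.679 at 2 kb) and SCC-1 neighbors (0.200 at 50% overlap) against SIN-3 sites, arms against SIN-3 sites (0.115 without JMJD-2 within 1 kb, 2.78 merged), X against single-protein SIN-3 sites (0.383) and TOP-2 against SCC-1 sites (0.693 merged). The cause was not tested. Counting from 1 to 5 kb, from midpoints or without IV was chosen after seeing the data. No paired analysis was possible because each list combines both replicates, which also prevents leaving 1 out. The lists hold no score for a stricter threshold.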

Other observations

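Neighboring SCC-1/SIN-3 sites without JMJD-2 were a median of 194 kb apart, and the distances reached 3010 kb. The spacing was not compared with that of other classes, and clustering was not tested. Of the 287 sites, 24 (8.36%) had another within 10 kb. These formed 12 pairs and no longer run, with 2 pairs on I, 6 on II, 1 on III and 3 on IV. The closest pair was on II, from 696647 to 697007 and from 697294 to 697523 (ce10), with midpoints 0.582 kb apart. In the first of these the SCC-1 and SIN-3 midpoints were 91.5 bp apart, in the second 13.5 bp. A pair on IV, from 3050770 to 3051008 and from 3052930 to 3053170, had midpoint distances of 17 and 1 bp. A pair on II joined the site with 4 proteins from 10868764 to 10869037 with a site of SCC-1 and SIN-3 only from 10872552 to 10872786. The pairs are described without a test.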
